A study of Mus musculus with 6 samples.

Results

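Glypicans, syndecans and versican are core proteins that carry long sulfated sugar chains, and 9 of their genes were compared between IL-11+ and IL-11- cells of the inflamed mouse colon: *Sdc1*, *Sdc2*, *Sdc3*, *Sdc4*, *Gpc1*, *Gpc3*, *Gpc4*, *Gpc6* and *Vcan*. The genes were taken by symbol, as 9 of the 20327 gene symbols listed for each library, and all 9 had enough tags to be tested among 9334 genes. Syndecans span the plasma membrane and glypicans are tethered to it by a lipid anchor. Both carry heparan sulfate chains that bind growth factors, chemokines and matrix proteins, and they act as co-receptors. Versican is a large chondroitin sulfate proteoglycan of the extracellular matrix that binds hyaluronan, and it is known for its deposition in inflamed and tumor stroma.

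All mice were C57BL/6 *Il11-Egfp* reporter mice, carrying a bacterial artificial chromosome with *Egfp* recombined into its *Il11* gene. The mice, males according to the methods, received 1.5% dextran sulfate sodium (DSS), which injures the colonic epithelium, in drinking water for 5 days, at 9 to 15 weeks of age, and the colon was taken on day 7. DAPI-negative cells that lacked the lineage markers CD45, CD31, EpCAM and Ter119 were sorted into the EGFP-Positive (IL-11+) group and the EGFP-Negative (IL-11-) group, with 3 libraries each, numbered 1 to 3. Both groups came from DSS-treated colon, so no library here shows the uninjured state, and the sort of EGFP+ cells was not fully pure according to the methods. RNA was sequenced from the 5′ side of transcripts (5′Tag-seq), and the tags summed to 1057170, 1078179 and 1169817 in IL-11- and to 1046538, 1022851 and 1049048 in IL-11+ libraries 1, 2 and 3. Levels are given as normalized CPM, the tags of a gene relative to the TMM-scaled sum over tested genes in its library. The floor of 3 tags corresponds to 2.46 to 3.18 normalized CPM and covers counting error only. The methods name 3 mice but the labels do not say which mouse gave which library, so the p-values measure the spread between these libraries, which may be partly technical.

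The sort was checked on *Il11*, to which 5′ tags of the reporter transcript can also map. Its tags numbered 28, 51 and 89 in IL-11- libraries 1, 2 and 3, against 1357, 732 and 2658 in the IL-11+ libraries. All 9 fibroblast markers examined were detected in every library. Their summed level was 22955 ± 1456 normalized CPM in IL-11- cells against 35499 ± 6105 in IL-11+ cells (SD, n = 3), and *Dcn* was the most abundant. Of the 9, *Col3a1* and *Pdpn* were called higher and none lower, while under the fold threshold *Thy1* (log2 fold change 0.88, adjusted p = 0.0083) and *Dcn* (0.67, adjusted p = 0.046) were higher and *Lum* (-0.64, adjusted p = 0.038) lower, all 3 without overlap. The IL-11- group also held transcripts of other stromal cells. The 7 smooth muscle markers, led by *Myh11*, summed to 2569, 3214 and 4023 normalized CPM in IL-11- libraries 1, 2 and 3 and to 96.4, 155 and 335 in IL-11+ libraries, and all 7 were called lower in IL-11+ cells. The 7 pericyte markers, led by *Rgs5*, summed to 2358 ± 294 in IL-11- and 927 ± 138 in IL-11+ cells, with 4 of the 7 called lower. The pericyte markers did not move as one, since *Kcnj8* (log2 fold change 0.71, adjusted p = 0.039) and *Abcc9* (0.66, adjusted p = 0.017) were higher in IL-11+ cells, under the fold threshold, and *Pdgfrb* was not called. Markers of interstitial cells of Cajal (*Kit* and *Ano1*) summed to 181 ± 53.3 in IL-11- and 7.35 ± 11.8 in IL-11+ cells. The IL-11- group is therefore called IL-11- cells here. In RNA from pooled sorted cells, fewer cells of a type and less RNA per cell cannot be told apart.

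A gene was called when edgeR's quasi-likelihood test gave a Benjamini-Hochberg adjusted p under 0.05 and the fold change was over 2. Of the 9 genes, *Sdc1* and *Vcan* rose in IL-11+ cells, *Gpc3* and *Gpc6* fell, and 5 were not called. Over all tested genes, 3.44% were called higher and 6.37% lower. By the adjusted p alone, without a fold threshold, *Gpc1* and *Sdc4* were also higher, which made 4 of the 9 genes higher against 6.84% of all tested genes, and 2 lower against 8.7%. All IL-11+ libraries stood above all IL-11- libraries for *Sdc1*, *Vcan* and *Gpc1*, and below them for *Gpc3* and *Gpc6*. Over all tested genes, 14.5% lay wholly above and 16.7% wholly below in this way. On the log2 scale, the median difference was 0.01 for the 9 genes and -0.01 for all tested genes.

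**Figure D1:**
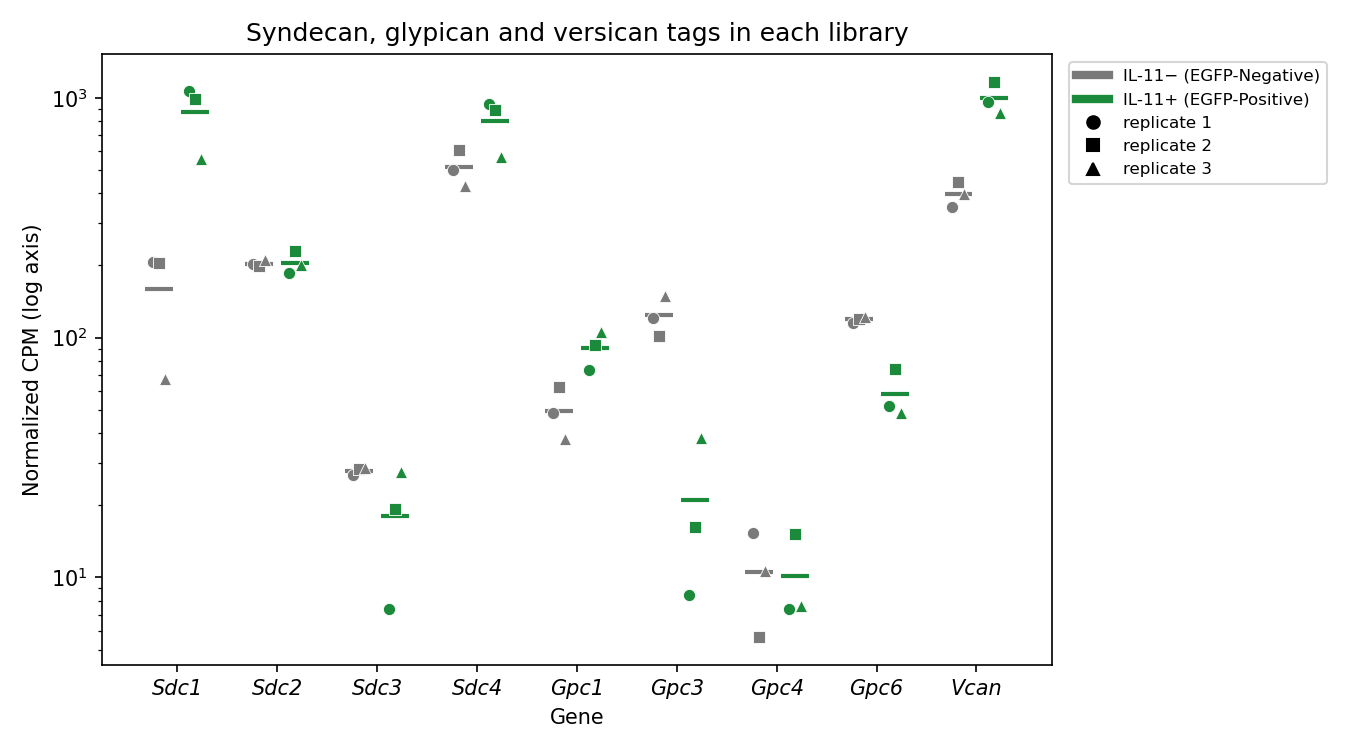
Normalized CPM (log axis) of the 9 genes in each library. Grey marks are IL-11- and green marks IL-11+ libraries, the marker shape gives the replicate number and the horizontal lines are group means of 3 libraries. *Sdc1*, *Vcan* and *Gpc1* are higher in all 3 IL-11+ libraries, *Gpc3* and *Gpc6* are lower in all 3, and the groups overlap for the other 4 genes.

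*Sdc1* (syndecan-1, also known as CD138), the syndecan of epithelia and plasma cells, lies on the plus strand of chromosome 12, from 8771323 to 8793715 in GRCm38. It had 206, 204 and 67.3 normalized CPM in IL-11- libraries 1, 2 and 3 and 1068, 986 and 556 in IL-11+ libraries 1, 2 and 3. The lowest IL-11+ library was above the highest IL-11- library, and library 3 was the lowest of both groups. The means were 159 ± 79.7 in IL-11- and 870.1 ± 275 in IL-11+ cells (SD, n = 3), a 5.48-fold rise (log2 fold change 2.45, SE 0.317, 95% interval 1.79 to 3.12, adjusted p = 2.07e-05). Within each replicate number, the log2 ratio of IL-11+ to IL-11- was 2.37, 2.27 and 3.05. *Sdc1* had the largest rise of the 9 genes.

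Because *Sdc1* is abundant in epithelium and plasma cells, the markers of both were read in the same libraries. The epithelial markers, led by *Lgals4*, summed to 31.5, 25.4 and 50.9 normalized CPM in IL-11- and to 7.42, 12.2 and 21.9 in IL-11+ libraries 1, 2 and 3. *Epcam* had at most 1 tag in any library. The epithelial sum was lower in each IL-11+ library than in any IL-11- library. It was mostly *Lgals4* (28.0 ± 4.65 in IL-11- and 11.6 ± 5.03 in IL-11+ cells, SD, n = 3), the only epithelial marker with enough tags to be tested. Plasma cell markers, of which 5 of 7 were analysed here, summed to 141, 154 and 4.11 in IL-11- and to 60.4, 258 and 65.8 in IL-11+ libraries, nearly all of it *Jchain*, the joining chain of secreted antibodies. *Tnfrsf17*, a defining receptor of plasma cells, had 1 tag in 1 IL-11+ library and 0 in the other 5. IL-11- library 3 was the lowest for both *Jchain* (4 tags against 148 and 159) and *Sdc1* among IL-11- libraries, whereas among IL-11+ libraries the highest *Jchain* count (245 tags, library 2) did not coincide with the highest *Sdc1*. The part of these cells in the *Sdc1* counts was not tested. Without IL-11- library 3, the log2 fold change of *Sdc1* was 2.08.

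*Sdc4* (syndecan-4), the syndecan of focal adhesions, is on the minus strand of chromosome 2 (164424247 to 164443887). Its normalized CPM was 502, 605 and 431 in IL-11- and 943, 892 and 569 in IL-11+ libraries 1, 2 and 3. IL-11+ library 3 was below IL-11- library 2, so the groups overlapped, although within each replicate number the log2 ratio was positive (0.91, 0.56 and 0.40). The means of 513 ± 87.4 and 802 ± 203 (SD, n = 3) gave a log2 fold change of 0.64 (SE 0.199, 95% interval 0.23 to 1.06, adjusted p = 0.0335), under the fold threshold. With a block on replicate number, the log2 fold change was 0.62 (adjusted p = 0.00055), also under the threshold. With single libraries left out, the adjusted p was over 0.05 in 4 of 6 fits, those without IL-11- library 1 or 3 (0.10 and 0.11) or without IL-11+ library 1 or 2 (0.13 and 0.14).

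*Sdc2* (syndecan-2; chromosome 15, 32920723 to 33034935), the syndecan most typical of mesenchymal cells, had nearly the same level everywhere. The IL-11- libraries stood at 202, 199 and 210.2 normalized CPM and the IL-11+ libraries at 187, 230.5 and 200.3, with overlap. The log2 fold change was 0.01 (SE 0.16, adjusted p = 0.97), and its 95% interval of -0.32 to 0.35 lies inside the fold threshold on both sides. Stretches of 50 nt within the first 300 nt of each annotated transcript were compared with all other transcripts, and 9.16% of those of *Sdc2* recur in *Gm32618* and 1.78% of those of *Sdc1* in *Gm14724* and *Gm16407*. Some tags of these 2 syndecans can therefore be shared, whereas the other 7 genes had no such stretch. On the same strand, *Gpc1* and *Gpc3* overlap only microRNA genes in the annotation, and the other members no gene. *Sdc3* (syndecan-3; chromosome 4, 130792537 to 130826319), best known from neurons, was sparse, with 28, 30 and 35 tags in IL-11- libraries against 7, 19 and 29 in IL-11+ libraries. The IL-11- libraries were alike and the IL-11+ libraries spread over 7.42 to 27.7 normalized CPM, up to the IL-11- level. The log2 fold change of *Sdc3*, -0.60 (SE 0.349, 95% interval -1.34 to 0.13, adjusted p = 0.29), did not pass. It stood at -1.05 without IL-11+ library 3 (adjusted p 0.078) and at -0.24 without IL-11+ library 1 (0.70).

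The makeup of the syndecan tags differed between the groups. *Sdc1* made up 22, 19.7 and 9.13% of the tags of the 4 syndecans in IL-11- libraries 1, 2 and 3, and 48.4, 46.3 and 41.1% in IL-11+ libraries. The share of *Sdc4* was 56.8 ± 2.80% in IL-11- and 42.3 ± 0.446% in IL-11+ cells (SD, n = 3), and that of *Sdc2* 23.1 ± 4.84% and 11.4 ± 3.20%. The share of *Sdc2* was lower at a nearly equal level, while the summed level of the 4 syndecans was 904 ± 152 normalized CPM in IL-11- cells against 1896 ± 471 in IL-11+ cells. These shares are of 5′ tags, not divided by transcript length, and were not tested.

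*Gpc3* (glypican-3), a glypican known to restrain hedgehog signaling, is on the minus strand of the X chromosome (52272426 to 52613950). It had 120.3, 102 and 149 normalized CPM in IL-11- libraries 1, 2 and 3 and 8.48, 16.2 and 38.1 in IL-11+ libraries, or 126, 108 and 182 tags against 8, 16 and 40. Every IL-11+ library was far below every IL-11- library, although the IL-11+ libraries differed among themselves. The means of 124 ± 24.0 and 21.0 ± 15.4 (SD, n = 3) corresponded to a 5.79-fold lower level in IL-11+ cells (log2 fold change -2.53, SE 0.315, 95% interval -3.20 to -1.87, adjusted p = 1.43e-05). Leaving out IL-11+ library 3 moved the log2 fold change most, to -3.31. *Gpc3* had the largest fall of the 9 genes. The smooth muscle markers were lower in the same libraries, and among IL-11+ libraries they too were highest in library 3 (335 normalized CPM against 96.4 and 155), as were those of interstitial cells of Cajal (21.0 against 1.06 and 0). The pericyte sum, also lower in IL-11+ libraries, was instead lowest in library 3 (803 against 1076 and 903). Among IL-11- libraries, *Gpc3* was lowest in library 2, as was the interstitial cell sum (120 against 205 and 218 normalized CPM). The smooth muscle sum was instead lowest in IL-11- library 1 (2569 against 3214 and 4023). The part of these cells in the *Gpc3* counts was not tested.

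*Gpc6* (glypican-6; chromosome 14, plus strand, 116925315 to 117976544), the other glypican that fell, was even within IL-11- cells, at 116, 119.7 and 122 normalized CPM. It was 51.9, 74.1 and 48.6 in IL-11+ libraries 1, 2 and 3, without overlap. The log2 fold change was -1.03 (SE 0.191, 95% interval -1.44 to -0.63, adjusted p = 0.000826), just past the fold threshold, so that the call was lost without IL-11+ library 1 (-0.95) or 3 (-0.92) while the adjusted p stayed at 0.0066 and 0.0052. The smooth muscle and interstitial cell markers and 4 of the 7 pericyte markers were lower in the same libraries, and their part was not tested.

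*Gpc1* (glypican-1; chromosome 1, plus strand, 92831645 to 92860779), a co-receptor for fibroblast growth factors, had higher values in IL-11+ libraries but was not called. Its normalized CPM was 48.7, 62.2 and 37.8 in IL-11- and 73.1, 93.4 and 106 in IL-11+ libraries 1, 2 and 3. The groups did not overlap, and the mean went from 49.5 ± 12.2 to 90.8 ± 16.5 (SD, n = 3). The log2 fold change of 0.88 (SE 0.216, 95% interval 0.43 to 1.34, adjusted p = 0.00808) was under the fold threshold, and it passed the threshold without IL-11- library 2 (1.09) or IL-11+ library 1 (1.02). *Gpc4* (glypican-4; X chromosome, 52053021 to 52165252), the neighbor of *Gpc3* on the minus strand of the X chromosome, had only 16, 6 and 13 tags in IL-11- libraries against 7, 15 and 8 in IL-11+ libraries. Its log2 fold change was -0.06 (SE 0.453, adjusted p = 0.95). The interval of -1.01 to 0.89 did not exclude a fall just past the fold threshold or a rise close to it. The fall of *Gpc3* was thus not seen for *Gpc4*, but the difference between the 2 genes was not tested.

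*Gpc3* made up 40.1, 35.2 and 46.7% of the tags of the 4 glypicans in IL-11- libraries 1, 2 and 3 and 6.01, 8.16 and 19.1% in IL-11+ libraries. *Gpc1* made up 16.5 ± 4.86% in IL-11- and 50.6 ± 3.17% in IL-11+ cells (SD, n = 3), and in all 3 IL-11+ libraries it had the most tags of the 4. *Gpc6* held 39.4 ± 1.74% in IL-11- cells and 36.8, 37.2 and 24.3% in IL-11+ libraries 1, 2 and 3, so that its lower share lay mostly in library 3. Like those of the syndecans, these shares are not divided by transcript length. The summed level of the glypicans was 303 ± 15.8 normalized CPM in IL-11- cells against 180.1 ± 33.9 in IL-11+ cells, lower in each IL-11+ library, whereas the summed syndecans were higher in each. Of the other glypicans, *Gpc2* had 1 to 6 tags in any library and *Gpc5* was not analysed here.

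**Figure D2:**
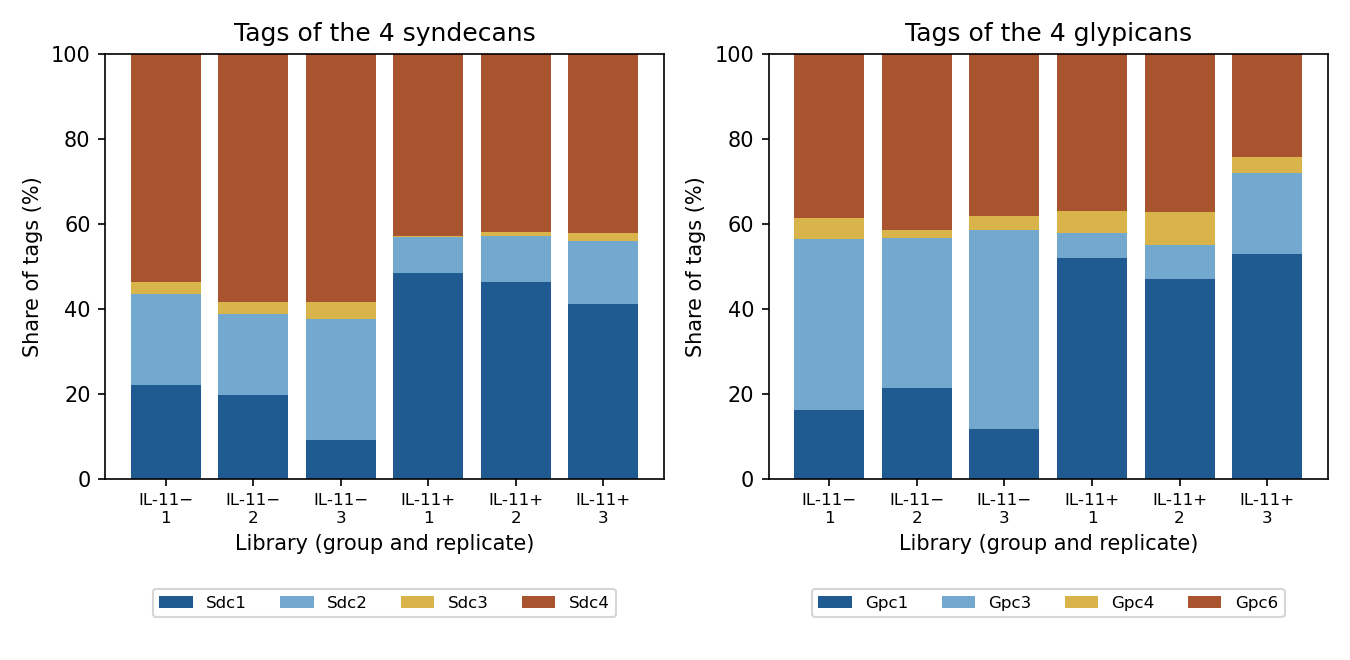
Share (%) of each gene among the tags of the 4 syndecans (left) and of the 4 glypicans (right) in each of the 6 libraries, as stacked bars that sum to 100%. *Sdc1* and *Gpc1* take larger shares in the IL-11+ libraries, *Gpc3* takes smaller ones, and *Sdc4* holds 56.8% in IL-11- and 42.3% in IL-11+ libraries on average.

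*Vcan* (versican) is a minus-strand gene of chromosome 13 (89655312 to 89742509). Its normalized CPM was 349, 447 and 399 in IL-11- libraries 1, 2 and 3 and 966, 1168 and 868 in IL-11+ libraries. The lowest IL-11+ library was well above the highest IL-11- library, and the spread within each group was small beside the gap. The mean rose from 398 ± 48.6 to 1000.3 ± 153 (SD, n = 3), 2.51-fold (log2 fold change 1.33, SE 0.175, 95% interval 0.96 to 1.70, adjusted p = 2.65e-05). Within each replicate number, the log2 ratio was 1.47, 1.39 and 1.12, and over 14 settings of scaling, filter, test and left-out library the log2 fold change stayed between 1.21 and 1.43. The annotation lists 9 *Vcan* transcripts, and tags per gene from the 5′ side do not tell which splice forms of the chondroitin sulfate region were made. The other lecticans *Acan* and *Bcan* were not analysed here, and *Ncan* had at most 1 tag in any library.

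**Figure D3:**
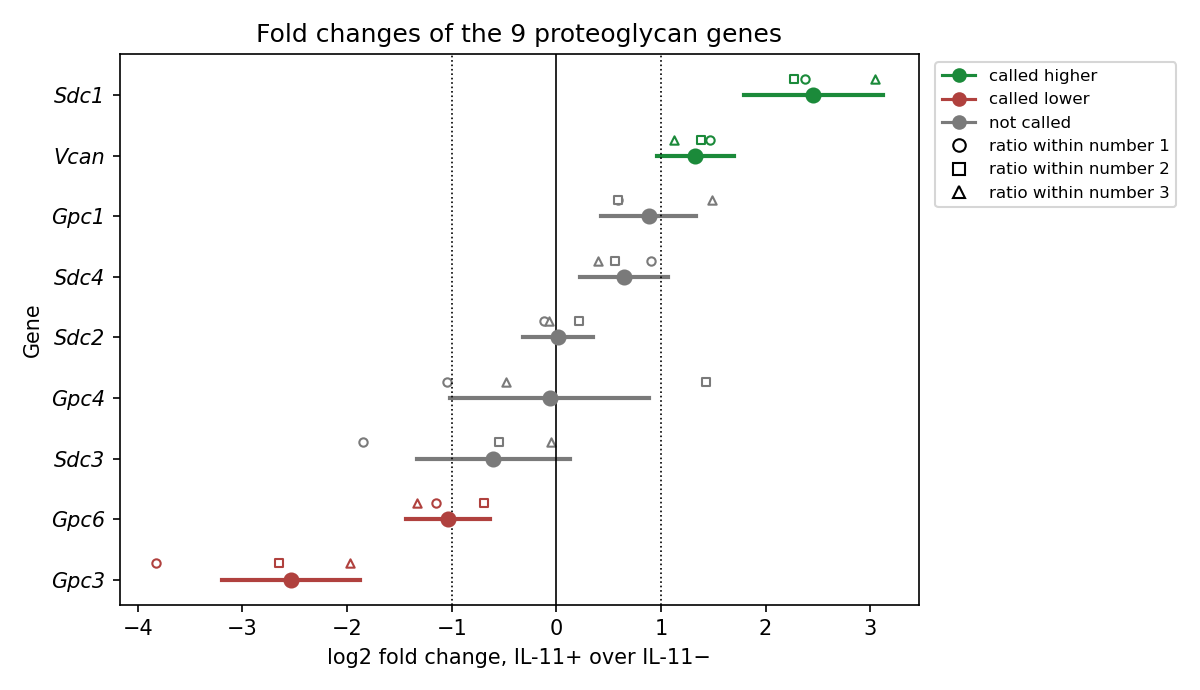
Log2 fold change of IL-11+ over IL-11- cells for the 9 genes (filled points) with 95% intervals (lines) from edgeR's quasi-likelihood fit. Open marks above each line are the ratios within replicate numbers 1, 2 and 3, and dotted lines mark the fold threshold of 2. *Sdc1* and *Vcan* are called higher, *Gpc3* and *Gpc6* lower, and the ratios within numbers have one sign for these 4 genes, for *Gpc1*, for *Sdc4* and for *Sdc3*.

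For each of the 4 called genes, the 2 tested genes with the most similar profile over the 6 libraries were found from the root mean square difference of log2 normalized CPM (pseudocount 1) centred on each gene's mean. The profile of *Vcan* was closest to those of *Chl1*, a neural cell adhesion molecule (0.0805), and *Plscr1*, a phospholipid scramblase (0.112). *Gpc6* was closest to *Rgmb*, a BMP co-receptor with the same kind of lipid anchor as glypicans (0.0517), and to the noncoding RNA *Snhg15* (0.0651). *Rgmb*, at a log2 fold change of -1.01, lost its call without IL-11- library 2 or 3 (-0.96 and -0.996) or IL-11+ library 1 or 3 (-0.94 and -0.86), and *Snhg15*, at -0.996, passed the fold threshold without IL-11+ library 2 (-1.23). *Gpc3* was less closely matched, by the small heat shock protein gene *Cryab* (0.235) and by *Clec3b*, which encodes tetranectin (0.269). The log2 fold change of *Cryab*, -2.22, was -3.28 without IL-11+ library 3. *Sdc1* had the most distant matches, *Il1rn* (0.296), which encodes the IL-1 receptor antagonist, and the carboxylesterase gene *Ces1g* (0.298). *Ces1g* had 20, 16 and 9 tags in IL-11- libraries against 116, 146 and 70 in IL-11+ libraries, with library 3 the lowest of both groups as for *Sdc1*. *Il1rn* was sparse, with 3, 5 and 1 tags in IL-11- libraries, and its log2 fold change of 2.85 was 3.44 without IL-11- library 2.

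Among 10 other proteoglycans, 8 were tested, 1 rose and 3 fell, against 3.44% of all tested genes called higher and 6.37% lower. *Col18a1*, a basement membrane collagen with heparan sulfate chains, rose from 302 ± 85.9 to 1187 ± 383 normalized CPM (SD, n = 3; log2 fold change 1.97, SE 0.246, adjusted p = 1.45e-05). *Cspg4* (NG2, a pericyte proteoglycan, -2.32), the testican *Spock2* (-2.79) and *Srgn* (serglycin of leukocyte granules, -1.60) fell, and *Srgn* lost its call without IL-11+ library 1 or 3 (-1.46 and -1.22; adjusted p 0.056 and 0.064) and stood at -2.32 without IL-11+ library 2. *Cspg4* is also 1 of the 4 pericyte markers counted above as lower, and the part of pericytes in its counts was not tested. *Tgfbr3* (betaglycan) was not called, at -0.21 (SE 0.16, adjusted p = 0.46).

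The enzymes that build the chains were also read. Of 10 genes for the linker and the heparan sulfate backbone, 7 were tested and none was called, with a median log2 fold change of 0.17. *Extl3* stood at 0.70 (SE 0.233, adjusted p = 0.049), and its adjusted p was on both sides of 0.05 over the 13 alternatives (0.027 to 0.18), and over 0.05 in all 6 fits that each omitted 1 library. Of 12 genes that modify or cleave heparan sulfate, 10 were tested and 2 rose, against 3.44% of all tested genes. *Hs3st1*, which adds the rare sulfate that lets heparan sulfate bind antithrombin, had 23.9, 28.3 and 37.0 normalized CPM in IL-11- and 67.8, 54.8 and 114 in IL-11+ libraries (log2 fold change 1.40, SE 0.272, adjusted p = 0.00123). The other was *Ndst2*, an N-sulfating enzyme, with 11, 8 and 14 tags in IL-11- libraries against 38, 13 and 19 in IL-11+ libraries. Its call (1.25, adjusted p = 0.0484) rested on few tags, and without IL-11+ library 1 the log2 fold change was 0.67. It was also lost without IL-11- library 1, 2 or 3 (1.29, 1.10 and 1.38; adjusted p 0.10, 0.17 and 0.070). The extracellular sulfatases that trim these chains had opposite signs, 0.71 for *Sulf1* (SE 0.204, adjusted p = 0.0218) and -0.83 for *Sulf2* (SE 0.256, adjusted p = 0.0335). Both were under the fold threshold. The adjusted p of *Sulf1* was over 0.05 without IL-11- library 2 or 3 (0.084 and 0.088) or IL-11+ library 1 or 2 (0.067 and 0.14). That of *Sulf2* was over 0.05 without IL-11- library 1 or 2 (0.089 and 0.13), without IL-11+ library 1 or 3 (0.15 and 0.053) and with DESeq2 (0.068), whereas without IL-11+ library 2 it passed the fold threshold. Its log2 fold change was -1.14 in that fit and -0.53 without IL-11+ library 1.

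Of 12 genes for chondroitin sulfate, the chain that versican carries, 11 were tested, 3 rose and none fell. Over all tested genes, 3.44% were called higher and 6.37% lower. The median log2 fold change was 0.69 for the 11 genes and -0.01 for all tested genes. *Chst11*, a 4-O-sulfotransferase, had 91.7, 93.3 and 71.4 normalized CPM in IL-11- and 403, 254 and 222 in IL-11+ libraries (log2 fold change 1.78, SE 0.217, adjusted p = 1.14e-05). *Csgalnact1*, which starts the chain, had a log2 fold change of 1.23 (SE 0.279), and *Chst15*, which adds a further sulfate, one of 1.10 (SE 0.21). Both calls depended on single libraries, with *Csgalnact1* at 0.94 without IL-11- library 1 and *Chst15* at 0.92 without IL-11- library 3 and at 0.996 without IL-11+ library 2.

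Of 8 genes grouped here under release of glypicans and shedding of syndecans, 4 were tested. The gelatinase gene *Mmp2* rose from 926 ± 137 to 2382 ± 273 normalized CPM (SD, n = 3; log2 fold change 1.36, SE 0.178, adjusted p = 2.33e-05). *Mmp14* (0.91, SE 0.187, adjusted p = 0.00195) was under the fold threshold, and reached 1.02 without IL-11- library 2. Of 7 genes for proteins that bind the syndecan tail, 6 were tested and none was called. The most studied of them, *Sdcbp* (syntenin), had 294 ± 19.5 and 319 ± 21.8 normalized CPM (SD, n = 3; log2 fold change 0.12, SE 0.158).

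Hyaluronan synthases, link proteins, fibulins and other partners of versican were read next. Of 10 such genes, 7 were tested, none was called higher and 2 fell, against 3.44% and 6.37% of all tested genes. *Has1*, a hyaluronan synthase, had 478, 719.8 and 1083 normalized CPM in IL-11- and 108, 184 and 357 in IL-11+ libraries 1, 2 and 3, with library 3 the highest of both groups (log2 fold change -1.81, SE 0.325, adjusted p = 0.000626). The smooth muscle sum, also lower in IL-11+ libraries, likewise increased from library 1 to 3 in both groups. So did the fibroblast marker *Lum* (1024, 1221 and 1768 normalized CPM in IL-11-, and 722, 916 and 946 in IL-11+ libraries), though not *Dcn*. This order was therefore not particular to smooth muscle. The part of smooth muscle cells in the *Has1* counts was not tested. *Tnfaip6*, whose product links hyaluronan to other matrix proteins, was at -1.03 (SE 0.263, adjusted p = 0.011), and its call was lost without IL-11- library 3 (-0.68) or IL-11+ library 1 or 2 (-0.84 and -0.89). The synthase gene *Has2* had the opposite sign, at 32.3 ± 7.63 in IL-11- and 51.0 ± 2.33 normalized CPM in IL-11+ cells (SD, n = 3), without overlap. It was not called (log2 fold change 0.67, SE 0.237, adjusted p = 0.067). The hyaluronan receptor gene *Cd44* (0.30, SE 0.16, adjusted p = 0.25) was not called either. Among 6 ADAMTS proteases known to cleave versican, 5 were tested. *Adamts5* was lower (-1.09, SE 0.222, adjusted p = 0.0019), though not past the fold threshold without IL-11- library 3 (-0.89) or IL-11+ library 2 (-0.91), whereas *Adamts1* (1175 ± 128 and 1236 ± 179.8 normalized CPM) and *Adamts4* (1658 ± 217 and 1705 ± 493) were not called.

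The 15 heparin-binding ligands examined were all tested, with 9 called higher and 2 lower, against 3.44% and 6.37% of all tested genes. Their median log2 fold change was 1.54, against -0.01 for all tested genes. The higher ones with the smallest p were *Nrg1*, *Hgf*, *Fgf7* and *Grem1*. The 9 include *Bmp4* (1.07), which was under the fold threshold without IL-11- library 3 (0.96), without IL-11+ library 1 (0.88) and with scaling by library size only (0.98). *Ptn* (pleiotrophin, a neurite-promoting factor that binds syndecans) had 39, 68 and 148 tags in IL-11- libraries against 2, 2 and 12 in IL-11+ libraries (log2 fold change -3.78, SE 0.503, adjusted p = 2.88e-05). Without IL-11+ library 3 it stood at -5.10. Like the smooth muscle sum and the fibroblast marker *Lum*, *Ptn* increased from library 1 to 3 in IL-11- cells. It was also, like both, highest in library 3 among IL-11+ libraries, and the part of smooth muscle cells was not tested. *Pdgfa*, a growth factor for fibroblasts, had 18, 33 and 40 against 7, 6 and 14 tags (-1.58, SE 0.377, adjusted p = 0.00672). *Hbegf* was not called (-0.89, SE 0.368, adjusted p = 0.12). The higher ligands had been seen in earlier results of these data, so their count is not independent evidence of direction.

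Because tags came from the 5′ side, the sequence upstream of 3 of the 4 called genes is shown. RefSeq windows of 300 bases around an annotated start were at hand for 6 of the 9 genes (*Sdc1*, *Sdc3*, *Sdc4*, *Gpc3*, *Gpc4* and *Vcan*), and not for *Gpc1*, *Gpc6* and *Sdc2*. For *Sdc4* and *Gpc4* this start lies inside a longer transcript, so their windows are not around the outermost gene start given above. The 6 windows were searched on both strands for AP-1 (TGANTCA), STAT (TTCNNNGAA), NF-κB (GGG, any 2 bases, then TTTCC), TATA box (TATAAA) and GC box (GGGCGG) letters. All 6 windows held a GC box, as did 35.7% of the 32851 windows of all genes. None of the 6 held the letters of the other motifs, which were in 7.81, 8.3, 1.63 and 13.6% of all windows in the order AP-1, STAT, NF-κB and TATA box. No match says only that these letters are not in the window. The bases below come from RefSeq (GRCm38.p6), are written 5′ to 3′ on the strand of the gene and end before the first annotated transcript start. Capitals mark GC boxes on either strand, 2 for *Sdc1* (chr12:8771146-8771322, plus strand), 2 for *Vcan* (chr13:89742513-89742762, minus strand) and 3 for *Gpc3* (chrX:52613975-52614224, minus strand).
Sdc1: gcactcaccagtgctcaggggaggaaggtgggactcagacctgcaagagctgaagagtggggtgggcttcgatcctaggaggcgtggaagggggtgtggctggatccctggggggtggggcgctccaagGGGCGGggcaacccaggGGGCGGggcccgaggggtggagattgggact
Vcan: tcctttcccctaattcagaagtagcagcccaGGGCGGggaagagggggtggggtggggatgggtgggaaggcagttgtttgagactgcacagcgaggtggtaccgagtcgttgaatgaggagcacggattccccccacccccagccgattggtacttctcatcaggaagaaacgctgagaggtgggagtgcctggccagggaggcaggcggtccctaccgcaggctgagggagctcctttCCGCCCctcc
Gpc3: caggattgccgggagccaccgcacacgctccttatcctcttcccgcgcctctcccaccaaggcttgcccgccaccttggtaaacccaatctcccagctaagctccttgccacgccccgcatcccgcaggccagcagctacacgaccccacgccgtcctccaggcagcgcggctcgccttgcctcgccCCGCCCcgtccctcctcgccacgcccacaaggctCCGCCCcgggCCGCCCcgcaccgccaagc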

How the data were processed

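RNA of 3 EGFP+ and 3 EGFP- samples was measured by 5′Tag-seq. According to the methods and the submitters' processing notes, the authors used Cutadapt 1.18 for trimming and Bowtie2 2.2.5 for mapping to mm10 RefSeq RNA in one orientation, and deposited raw tag counts per gene symbol. Whether molecular identifiers were used, and how multi-mapping tags were handled, is not given in the sources used here. As printed, the methods exclude genes at 10 tags or more, read here as a minimum. Genes reaching 10 tags in 3 or more libraries were tested with edgeR 4.0.16 in R 4.3.3 (TMM, quasi-likelihood test, Benjamini-Hochberg adjustment over 9334 genes), and called as in the methods (adjusted p below 0.05, more than 2-fold). SE is the absolute log2 fold change over the square root of F. The methods normalize with TCC, whose iterative scaling was an alternative, beside RLE, library size only, DESeq2 1.42.0, other filters, no fold threshold, a replicate block and each library left out. Same-numbered libraries deviated together from their group means (r of 0.231, 0.209 and 0.27 across 5064 genes averaging 30 tags or more). Genes are not independent replicates, and libraries of different numbers were not compared in this way, so these r do not establish a pairing. The numbers of the sample titles were taken to pair the libraries in the block fit and in the ratios within replicate numbers alone. No 2 libraries agreed within sampling noise. The fit was tested on simulated data. Positions are from GENCODE release 21 for mouse (GRCm38). Named are the 9 genes, from each gene list at most the 4 called genes with the smallest p in each direction and 1 that did not pass, *Il11*, cell type markers and the 2 genes nearest in profile to each called gene of the 9. *Sulf1*, *Sulf2*, *Has2*, *Adamts1*, *Adamts4*, *Bmp4*, *Gpc2* and *Ncan*, where beyond that rule, were chosen after their values were seen. One further marker list is not reported here. Members and lists were chosen with earlier results of these data known.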

Additional observations from a re-analysis of the deposited data

How the results depend on the processing

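Over 13 alternatives for each of the 9 genes, 107 of 117 values kept their direction and their side of the threshold. *Sdc1*, *Vcan* and *Gpc3* kept their calls in all 13. *Gpc6* lost its call with no filter on low genes (-0.99), which left 1 gene of the 9 called lower. Scaling by library size only put *Sdc2* at -0.067, *Adamts1* at -0.014 and *Adamts4* at -0.039 on the log2 scale, with a median of -0.095 over all tested genes. Without a fold threshold, 638 genes, among them 4 of the 9, were higher. In fits that left out 1 library, the log2 fold change of *Gpc4* ranged from -0.47 to 0.28, of *Sdc2* from -0.071 to 0.087 and of *Adamts4* from -0.19 to 0.23; the cause was not tested. The genes called higher numbered 267 to 329 and those lower 483 to 580, with 2 to 3 and 1 to 2 of the 9 among them. The replicate block gave 337 higher and 648 lower genes and changed no call among the 9. It changed none of the calls of list genes, and it put *Snhg15* past the fold threshold (-1.01), as did iterative TMM and library size only. *Ndst2* was lost with iterative TMM, library size only and DESeq2, *Tnfaip6* with DESeq2 and with no filter, and *Rgmb* with RLE, DESeq2 and both other filters. *Gpc4*, *Sdc3* and *Ndst2* had at most 38 tags in any library, and the part of depth in their spread was not tested.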

Other observations

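The globin genes *Hba-a1*, *Hbb-bs* and *Hbb-bt* summed to 77.3, 0 and 233 normalized CPM in IL-11- and to 12.7, 2.03 and 14.3 in IL-11+ libraries 1, 2 and 3, although Ter119+ cells were removed in the sort. Markers of mesothelium, led by *Wt1*, summed to 13.4, 4.71 and 15.6 in IL-11- and to 0, 0 and 1.91 in IL-11+ libraries. The leukocyte markers, led by *Cd68*, summed to 17.1 ± 4.16 and 11.6 ± 5.27 normalized CPM (SD, n = 3), and the endothelial markers, led by *Kdr*, to at most 2.83 in any library.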
